A study of Mus musculus with 6 samples.

Results

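The genes described here are 46 interferon-stimulated and MHC class I antigen presentation genes of the mouse, listed by name and function with earlier results of these data known: 17 antiviral effectors, 3 genes of the ISG15 system, 4 transcription factors, 4 RNA and DNA sensors, 3 genes of the PARP9, DTX3L and PARP14 group, 7 interferon-inducible GTPases and 8 genes of class I antigen presentation. All 46 were found among the 57010 Ensembl identifiers of the count table through their symbols. The filter on low counts kept 16093 genes and 45 of the 46, leaving out Oas3. RNA was measured by sequencing of polyadenylated transcripts from fibroblasts of mouse ear skin, 500000 cells per sample, after 3 days on glass, on polyacrylamide hydrogel of 1 kPa or on polyacrylamide hydrogel of 20 kPa. Each substrate had 2 libraries, 6 in all, and glass was the control. The samples were frozen before RNA isolation. No interferon, infection or other agent is named for any group, and the sources used here give no strain, genotype, sex or age. Whether both libraries of a substrate stem from separate animals or cultures is not stated, so p-values measure only how these samples vary, and that variation may be technical.

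Interferons are secreted proteins that bind receptors on the cell surface and activate the kinases JAK1, TYK2 and JAK2, which phosphorylate STAT proteins. The complex ISGF3, which holds STAT2 and IRF9, binds the interferon-stimulated response element (ISRE) in promoters, whereas the gamma-activated site (GAS) serves the response to interferon gamma. The induced genes encode proteins that sense foreign nucleic acid, block viral replication and load peptides onto MHC class I molecules for display to T cells, and fibroblasts, like most cells, respond to interferon and carry class I molecules at a basal level.

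The promoters of the genes were searched for elements of this pathway. RefSeq promoter windows, 250 bases before to 50 bases after each transcription start on GRCm38.p6, were found for 35 of the 46 genes, 40 windows in all. The ISRE core was searched as GAAA, any 2 bases, GAAA on both strands, so that it reads TTTC, 2 bases, TTTC on the other strand, and matches that overlap were counted separately. It was present in 16 of the 40 windows (40%) and in 3.44% of all 32851 windows. The GAS core TTCNNNGAA was present in 20% of the 40 windows and in 8.3% of all windows, and the NF-kB consensus, which is bound by another inflammatory factor, in 17.5% and 4.51%. A match is a description of these letters only. The stretches below are shown because their genes had different orders of expression over the 3 substrates. Isg15, Bst2, Stat2, Oas1a and Igtp had their highest mean on 1 kPa. B2m, Ifit1 and Ifit3 had it on 20 kPa, although of these only Ifit3 differed between the gels by the test. Each is written 5′ to 3′ on the strand of its gene, with ISRE matches in capitals.
B2m (chr2:122147528-122147577, plus strand): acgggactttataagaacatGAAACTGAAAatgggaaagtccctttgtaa
Isg15 (chr4:156200855-156200916, minus strand): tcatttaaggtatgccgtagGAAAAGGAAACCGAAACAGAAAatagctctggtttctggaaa
Bst2 (chr8:71537567-71537622, minus strand): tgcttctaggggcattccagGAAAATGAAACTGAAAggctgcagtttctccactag
Stat2 (chr10:128270256-128270305, plus strand): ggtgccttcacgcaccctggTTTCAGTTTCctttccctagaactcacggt
Oas1a (chr5:120907526-120907565, minus strand): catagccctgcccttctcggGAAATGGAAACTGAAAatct
Igtp (chr11:58199502-58199551, plus strand): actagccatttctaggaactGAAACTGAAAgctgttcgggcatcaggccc
Ifit1 (chr19:34640765-34640833, plus strand): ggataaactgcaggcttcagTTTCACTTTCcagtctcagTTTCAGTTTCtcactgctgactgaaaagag
Ifit3 (chr19:34583353-34583436, plus strand): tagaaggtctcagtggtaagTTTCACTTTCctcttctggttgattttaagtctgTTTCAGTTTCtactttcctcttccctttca
The Isg15 stretch holds 3 matches that overlap, and those of Bst2 and Oas1a hold 2 each. Ifit1 and Ifit3, which lie close together on chromosome 19, hold 2 separate matches each, all on the strand opposite to the gene. B2m, whose mean was likewise highest on 20 kPa, holds 1 match on its own strand. Genes not shown had other layouts. Irgm1, whose mean was also highest on 20 kPa, holds 2 overlapping matches on its own strand. Gbp2, Gbp3, Gbp7 and Rsad2, whose means were highest on 1 kPa, hold matches on the opposite strand. A link between matches and order of expression was not tested. The B2m window also holds an NF-kB consensus match, as do windows of H2-K1, H2-D1, Bst2, Oasl1 and Irf1.

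Library totals ran from 17669006 to 21350111 counts. Levels are given as CPM, a gene's counts scaled to a common library size with TMM factors, and 3 counts, taken as the detection floor, correspond to 0.139 to 0.174 CPM. Replicate libraries had a correlation of 0.992 to 0.993 over genes in log2 values, yet each pair differed beyond counting noise, the glass pair most. The summed level of 10 fibroblast markers, collagens among them, was 39080 and 36320 CPM on glass, 51540 and 50430 CPM on 1 kPa and 55280 and 52500 CPM on 20 kPa, above glass in every gel library. Of these 10 markers, 9 were called higher and 1 lower on 1 kPa than on glass, and 8 higher and 1 lower on 20 kPa. The shares over all tested genes were 23% higher and 22% lower on 1 kPa, and 22.3% and 19.6% on 20 kPa. The part of these markers in the results on the listed genes was not tested. The general leukocyte marker Ptprc stayed at or below 0.29 CPM, and 10 macrophage and leukocyte markers summed to 11.7 and 13.6 CPM on glass, 16.1 and 13.6 CPM on 1 kPa and 13.8 and 12.6 CPM on 20 kPa. The 9 markers of dendritic, T and NK cells had at most 8 counts in a library and none in glass replicate 2. In RNA from a whole culture, fewer cells of a type and less RNA per cell cannot be told apart.

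Most of the genes were higher on both gels than on glass. On 1 kPa, 39 of the 45 tested genes were higher than on glass at an adjusted p under 0.05 and only Ifit2 was lower, against 23% higher and 22% lower among all tested genes. On 20 kPa, 36 of 45 were higher than on glass and 0 were lower, against 22.3% and 19.6% among all tested genes. No gene of the list was lower on 20 kPa at an unadjusted p under 0.05 either, and DESeq2 also gave 0. The median log2 fold change of the 45 genes was 1.03 on 1 kPa (range -0.43 to 2.68) and 0.70 on 20 kPa (range -0.19 to 2.07), beside medians of 0.002 and 0.015 over all tested genes. Both comparisons share the glass libraries. Every adjusted p given for a gene comes from edgeR's quasi-likelihood test, corrected by the Benjamini-Hochberg method over the 16093 genes.

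**Figure D1:**
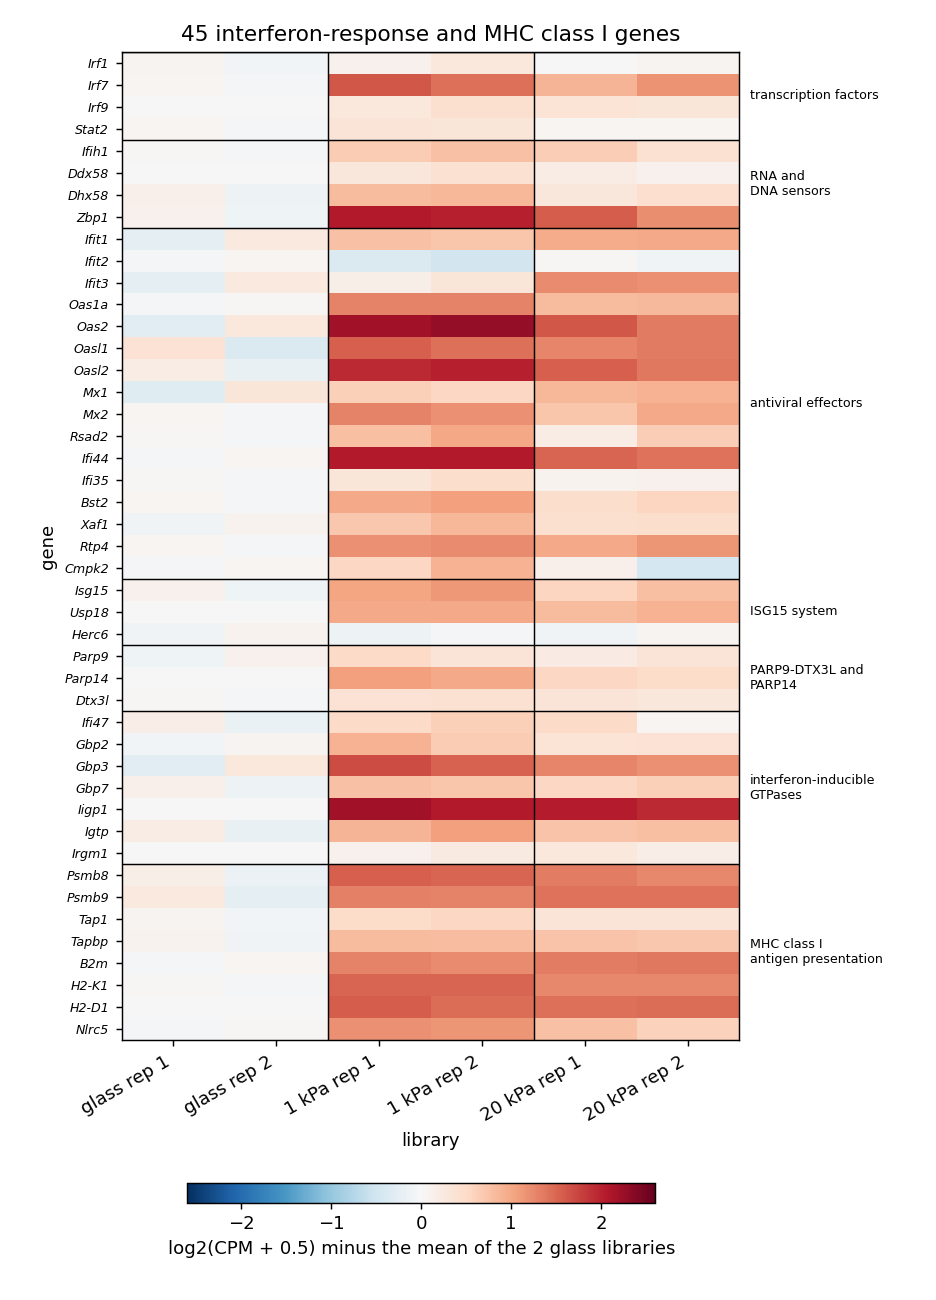
Level of each of the 45 tested genes (rows, grouped by role) in each library (columns), as log2(CPM + 0.5) minus the mean of the 2 glass libraries of that gene. Red is above and blue below the glass mean. Most rows are red in all 4 gel libraries and deeper on 1 kPa, Ifit2 is pale blue on 1 kPa, and Ifit3 is near white on 1 kPa and red on 20 kPa.

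Between the gels, most called differences were toward the softer substrate, and 24 of the 45 genes were not called. On 20 kPa, 19 of the 45 genes were lower than on 1 kPa and 2 were higher, against 9.92% lower and 8.94% higher among all tested genes. The median log2 difference was -0.23, beside 0.004 over all tested genes. The count of lower genes fell when any gel library was left out, and so did the share of lower genes among all tested genes. With DESeq2, 13 of the 45 genes were lower, against 7.21% of all tested genes. By group means, 36 of the 45 genes had the order 1 kPa, 20 kPa, glass from high to low. These 36 include all of the 19 genes called lower on 20 kPa except Cmpk2. The rest of the 36, such as Irf9 and H2-D1, were not called between the gels. How many of all tested genes had this order was not determined. Another 6 (Ifit1, Ifit3, Mx1, Irgm1, Psmb9 and B2m) were highest on 20 kPa and lowest on glass, although of these only Ifit3 differed between the gels by the test. Ifit2 and Herc6 had their highest mean on glass, and Cmpk2 its lowest on 20 kPa.

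Ligands of the pathway had few or no reads. Apart from Ifnz, which exceeded 3 counts in 4 of the 6 libraries, no interferon gene had more than 3 counts in a library. Of 21 interferon genes in the table, 16 had 0 counts in all 6 libraries, Ifnb1 among them, which allows up to 0.139 to 0.174 CPM per library. The other 5 had 33 counts over all libraries, 26 of them from Ifnz, whose highest count in a library was 7. Ifng, the type II interferon, had 1 count in all, in 20 kPa replicate 1. None of the 11 genes on the list of ligands passed the filter, so no difference between substrates was detectable at this depth.

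Of the 5 tested receptor chains 4 were higher on both gels than on glass, and of the kinases Jak2 was. Of 8 tested genes among receptors and kinases, 5 were higher and 0 lower on each gel against glass, and 3 were lower on 20 kPa than on 1 kPa. The count of lower genes on either gel was also 0 at an unadjusted p under 0.05, and DESeq2 gave 5 higher on 1 kPa and 4 on 20 kPa with 0 lower. In the main fit, 23% of all tested genes were higher and 22% lower on 1 kPa, and 22.3% and 19.6% on 20 kPa. Between the gels 9.92% of all tested genes were lower on 20 kPa. Jak2, a kinase of the interferon gamma receptor and of many cytokine receptors, was at 56 and 67.2 CPM on glass, 152 and 144 CPM on 1 kPa and 109 and 101 CPM on 20 kPa. Its 3 groups did not overlap, with log2 fold changes against glass of 1.27 (SE 0.072) on 1 kPa (adjusted p = 3.25e-15) and 0.77 (SE 0.072) on 20 kPa (adjusted p = 3.44e-10), and a difference between the gels of -0.50 (SE 0.069) (adjusted p = 2.15e-06). Jak1 and Tyk2, the kinases of the type I receptor, did not pass the test in any comparison. Jak1 was at 304 and 309.9 CPM on glass, 319 and 309.7 CPM on 1 kPa and 305 and 295 CPM on 20 kPa, with log2 fold changes of 0.04 (SE 0.055) and -0.03 (SE 0.055) against glass.

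Among the receptor chains, Ifnar2 of the type I receptor was at 22.3 and 23.1 CPM on glass, 38.3 and 41.6 CPM on 1 kPa and 29.7 and 31.5 CPM on 20 kPa. All gel libraries lay above both glass libraries, and the log2 fold change was 0.81 (SE 0.087) on 1 kPa and 0.43 (SE 0.088) on 20 kPa (adjusted p = 4.29e-09 and 2.01e-04). It was lower on 20 kPa than on 1 kPa by -0.38 (SE 0.083) (adjusted p = 0.00104, 0.000273 to 0.0554 over the 11 alternatives, the highest without 1 kPa replicate 2). Ifngr1, the ligand-binding chain of the interferon gamma receptor, was at 56.5 and 59.1 CPM on glass, 91 and 91.3 CPM on 1 kPa and 69.9 and 68.3 CPM on 20 kPa, and it was higher on 1 kPa than on glass by 0.66 (SE 0.065) and on 20 kPa by 0.26 (SE 0.066) (adjusted p = 9.52e-10 and 0.00195). Ifngr2, its signalling partner, rose by 0.46 (SE 0.076) and 0.36 (SE 0.076). Ifnar1 rose by 0.32 (SE 0.065) on 1 kPa and by 0.20 (SE 0.065) on 20 kPa, the latter with adjusted p = 0.0133, which became 0.0552 with DESeq2, 0.153 without glass replicate 2, 0.0688 without 20 kPa replicate 1 and 0.0813 without 20 kPa replicate 2. Il10rb, a chain of the interferon lambda receptor that the interleukin 10 receptor also uses, passed no test at 0.969 to 1.56 CPM, and Ifnlr1, its partner, did not pass the filter at 0.0975 to 0.436 CPM.

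**Figure D2:**
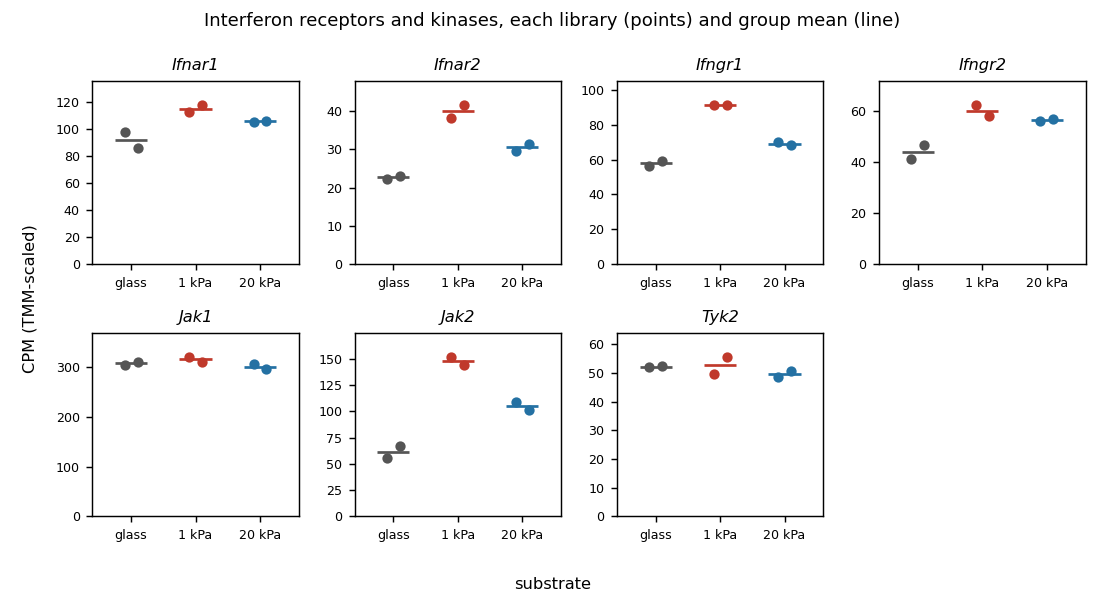
Level in CPM (vertical axis, from 0, a separate scale per gene) of the interferon receptor chains and their kinases on glass, 1 kPa and 20 kPa. Points are the 2 libraries and lines their mean. Jak2, Ifnar2 and Ifngr1 are highest on 1 kPa, and Jak1 and Tyk2 show no called difference.

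Of the 4 transcription factors on the list, 3 were higher on 1 kPa than on glass and 2 were higher on 20 kPa. The shares over all tested genes were 23% and 22.3%. Between the gels 2 of the 4 factors were lower on 20 kPa, against 9.92% of all tested genes. Irf7, which amplifies interferon production, was at 10.7 and 9.98 CPM on glass, 32.6 and 28.9 CPM on 1 kPa and 19.4 and 23.7 CPM on 20 kPa. The 3 groups did not overlap, and Irf7 was 2.97-fold higher on 1 kPa than on glass (log2 1.57 (SE 0.11), adjusted p = 8.11e-13) and 2.08-fold higher on 20 kPa (log2 1.06 (SE 0.12), adjusted p = 8.73e-09), with a gel difference of -0.51 (SE 0.1) (adjusted p = 3.44e-04). Irf9, the DNA-binding part of ISGF3, rose by 0.35 (SE 0.075) and 0.34 (SE 0.075), with -0.01 (SE 0.073) between the gels. Stat2 was at 72.9 and 68.3 CPM on glass, 89.1 and 88.3 CPM on 1 kPa and 73.4 and 72.9 CPM on 20 kPa. The 1 kPa libraries stood above all 4 others, by 0.33 (SE 0.064) against glass (adjusted p = 1.01e-04), while 20 kPa lay near glass at 0.05 (SE 0.065) (adjusted p = 0.584) and below 1 kPa by -0.28 (SE 0.064) (adjusted p = 0.00183). Irf1, a transcription factor induced early by interferon gamma, passed no test, at 22.5 and 20.6 CPM on glass, 23.3 and 26.3 CPM on 1 kPa and 21.7 and 22.5 CPM on 20 kPa.

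All 4 RNA and DNA sensors were higher on 1 kPa than on glass, and 3 were higher on 20 kPa. The shares over all tested genes were 23% and 22.3%. Between the gels 3 of the 4 sensors were lower on 20 kPa, against 9.92% of all tested genes. Zbp1, which senses nucleic acid in the Z form, changed most among the sensors. It was at 3.24 and 2.73 CPM on glass, 13.9 and 13.6 CPM on 1 kPa and 9.89 and 7.56 CPM on 20 kPa. Every gel library was above glass, and the fold was 4.57 on 1 kPa (log2 2.19 (SE 0.17), adjusted p = 4.36e-12) and 2.9 on 20 kPa (log2 1.54 (SE 0.18), adjusted p = 2.59e-08). The gel difference of -0.66 (SE 0.14) had adjusted p = 8.93e-04, and 5.68e-05 to 0.0615 over the 11 alternatives, the highest without 20 kPa replicate 2. The cytoplasmic RNA sensors changed less. Ifih1, which encodes MDA5, was higher by 0.73 (SE 0.11) and 0.54 (SE 0.11) on 1 kPa and 20 kPa against glass, and Dhx58, which encodes LGP2, by 0.86 (SE 0.13) and 0.37 (SE 0.13). The call of Dhx58 on 20 kPa against glass (adjusted p = 0.0286) was lost with DESeq2 and without glass replicate 2 or 20 kPa replicate 2 (adjusted p 0.118 to 0.217), and its gel difference of -0.50 (SE 0.12) (adjusted p = 0.00418) was lost without 20 kPa replicate 1, over alternatives that gave 0.00121 to 0.0864. Ddx58, which encodes RIG-I, was at 74.7 and 73.7 CPM on glass, 91 and 98.4 CPM on 1 kPa and 84.5 and 79.8 CPM on 20 kPa. It was higher on 1 kPa by 0.35 (SE 0.065) (adjusted p = 5.04e-05) and its value on 20 kPa did not pass the test (log2 0.15 (SE 0.065), adjusted p = 0.0736). Its gel difference of -0.20 (SE 0.064) was lost when any of the 4 gel libraries was left out, with total counts as the scaling and with DESeq2 (adjusted p 0.0505 to 0.366).

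Among the 16 tested antiviral effectors, 13 were higher and 1 lower on 1 kPa than on glass, and 12 were higher on 20 kPa. The shares over all tested genes were 23% higher and 22% lower on 1 kPa, and 22.3% higher on 20 kPa. Between the gels 8 effectors were lower and 2 higher on 20 kPa, against 9.92% and 8.94% of all tested genes. The median log2 fold change of the 16 effectors against glass was 1.28 on 1 kPa and 1.03 on 20 kPa. The oligoadenylate synthetase family, whose enzymes activate RNase L, included the largest rise. Oas2 was at 0.786 and 1.39 CPM on glass, 6.58 and 7.12 CPM on 1 kPa and 4.29 and 3.49 CPM on 20 kPa, and with no overlap it was 6.42-fold higher on 1 kPa than on glass (log2 2.68 (SE 0.25), adjusted p = 3.99e-10) and 3.65-fold higher on 20 kPa (log2 1.87 (SE 0.28), adjusted p = 1.73e-06). Its gel difference of -0.81 (SE 0.2) (adjusted p = 0.00353) was lost without 20 kPa replicate 2, over alternatives that gave 2.83e-04 to 0.0841. The OAS-like gene Oasl2 was at 8.97 and 6.79 CPM on glass, 31.2 and 33.2 CPM on 1 kPa and 23.8 and 20.9 CPM on 20 kPa. The 3 groups were separate and in the same order as for Oas2, with log2 fold changes of 2.01 (SE 0.12) and 1.49 (SE 0.12) against glass and -0.53 (SE 0.1) between the gels (adjusted p = 2.45e-04). Oasl1 rose by 1.82 (SE 0.31) and 1.61 (SE 0.32). Oas1a rose by 1.40 (SE 0.16) and 0.92 (SE 0.17), and its gel difference of -0.48 (SE 0.14) was lost with DESeq2 and when any gel library was left out (adjusted p 0.0822 to 0.095). Oas1a shares 57.6% of its 50-base stretches with Oas1g, Oas1b or other genes, so its counts are uncertain. Oas3, which did not pass the filter, was at 0.046 to 0.484 CPM.

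Ifi44, an interferon-induced cytoplasmic protein, was at 3.38 and 3.71 CPM on glass, 16.3 and 16.3 CPM on 1 kPa and 11.1 and 10.3 CPM on 20 kPa. The libraries of each group lay close together and the groups far apart, at 4.6-fold on 1 kPa (log2 2.20 (SE 0.15), adjusted p = 1.57e-13) and 3.03-fold on 20 kPa (log2 1.60 (SE 0.15), adjusted p = 5.87e-10), and -0.60 (SE 0.12) between the gels (adjusted p = 4.74e-04). Bst2, or tetherin, which holds budding virus at the cell surface, was at 43.4 and 40.1 CPM on glass, 83 and 88.4 CPM on 1 kPa and 57.7 and 61.5 CPM on 20 kPa. It rose by 1.03 (SE 0.072) and 0.51 (SE 0.073) and its gel difference of -0.52 (SE 0.069) had adjusted p = 1.04e-06. Rtp4, a receptor transport protein, rose by 1.25 (SE 0.11) and 1.11 (SE 0.11) on 1 kPa and 20 kPa. Xaf1, an interferon-induced partner of the apoptosis inhibitor XIAP, rose by 0.81 (SE 0.12) and 0.46 (SE 0.12). Its gel difference of -0.35 (SE 0.11) was lost with DESeq2 and without 1 kPa replicate 2 or either 20 kPa replicate (adjusted p 0.0906 to 0.267).

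The 3 IFIT genes, whose proteins bind viral RNA, did not move together although they are neighbours on chromosome 19. Ifit1 was at 11.8 and 17 CPM on glass, 24.5 and 23.7 CPM on 1 kPa and 28.1 and 28.4 CPM on 20 kPa. It rose on both gels, by 0.76 (SE 0.12) on 1 kPa (adjusted p = 3.43e-06) and 0.99 (SE 0.11) on 20 kPa (adjusted p = 2.53e-08). Between the gels it differed by 0.23 (SE 0.11) (adjusted p = 0.143), which passed the threshold with total counts as the scaling or when either glass library was left out (adjusted p 0.0417 to 0.0481).

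Ifit2 was at 23.2 and 24.8 CPM on glass, 18.5 and 17 CPM on 1 kPa and 24.5 and 22.4 CPM on 20 kPa. Both 1 kPa libraries lay below the other 4, and Ifit2 was lower on 1 kPa than on glass by -0.43 (SE 0.099) (adjusted p = 6.65e-04), the only gene of the list called lower on a gel. On 20 kPa it was near glass at -0.03 (SE 0.095) and above 1 kPa by 0.40 (SE 0.098) (adjusted p = 0.00376). Without 1 kPa replicate 2 or 20 kPa replicate 1 that gel difference was lost (adjusted p 0.078 to 0.0894).

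Ifit3 (ENSMUSG00000074896.4, chr19:34583531-34588731, plus strand) was at 9.34 and 13.6 CPM on glass, 12.6 and 14.1 CPM on 1 kPa and 27.2 and 26.5 CPM on 20 kPa. The 20 kPa libraries were about 2.02-fold above the 1 kPa libraries (log2 1.01 (SE 0.12), adjusted p = 1.64e-07) and 2.37-fold above glass (log2 1.24 (SE 0.12), adjusted p = 1.18e-09), whereas 1 kPa and glass overlapped (log2 0.23 (SE 0.14), adjusted p = 0.169). Without glass replicate 2 the 1 kPa comparison passed, over alternatives that gave adjusted p 0.00343 to 0.855. Ifit3 shares 51.2% of its 50-base stretches with Ifit3b. Ifit3b itself was at 2.73 and 3.31 CPM on glass, 2.05 and 1.91 CPM on 1 kPa and 3.75 and 4.31 CPM on 20 kPa and was also higher on 20 kPa than on 1 kPa, by 1.02 (SE 0.24) (adjusted p = 0.00236).

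**Figure D3:**
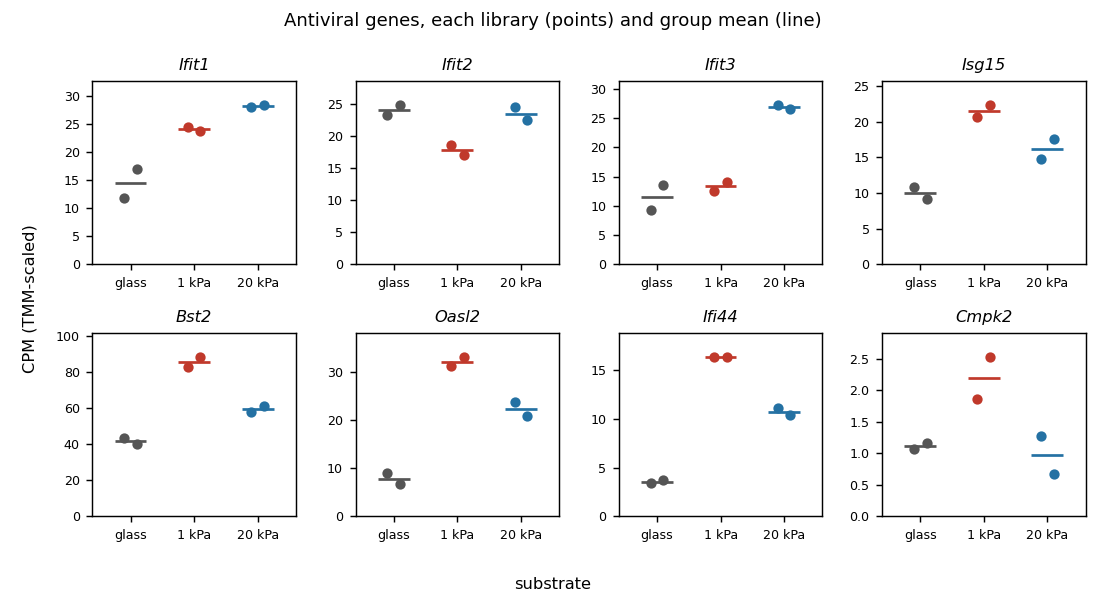
Level in CPM (vertical axis, from 0, a separate scale per gene) of 7 antiviral effectors and Isg15 on glass, 1 kPa and 20 kPa. Points are the 2 libraries and lines their mean. Isg15, Bst2, Oasl2 and Ifi44 are highest on 1 kPa, Ifit3 is high on 20 kPa alone, and Ifit2 is lowest on 1 kPa.

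Effectors with few reads gave less precise values. Ifi35, given last here, had 275 to 419 counts in a library, but its differences were small. Cmpk2, a mitochondrial nucleotide kinase encoded next to Rsad2, was at 1.06 and 1.16 CPM on glass, 1.85 and 2.52 CPM on 1 kPa and 1.27 and 0.678 CPM on 20 kPa. The higher call on 1 kPa against glass (log2 0.97 (SE 0.36), adjusted p = 0.0271) was lost with DESeq2 and without either glass replicate or 1 kPa replicate 2 (adjusted p 0.0603 to 0.225), and the lower call on 20 kPa against 1 kPa (log2 -1.16 (SE 0.36), adjusted p = 0.022) with DESeq2 and without 1 kPa replicate 2 or 20 kPa replicate 2 (0.0929 to 0.264). Rsad2, which encodes viperin, was at 0.694 and 0.638 CPM on glass, 1.51 and 1.85 CPM on 1 kPa and 0.829 and 1.31 CPM on 20 kPa, and its rise on 1 kPa of 1.32 (SE 0.41) (adjusted p = 0.00973) was lost without 1 kPa replicate 2, over alternatives that gave 0.00341 to 0.0829. Mx2, a dynamin-like antiviral GTPase, rose by 1.50 (SE 0.26) and 1.07 (SE 0.27). Its relative Mx1 was at 0.0925 and 0.406 CPM on glass, 0.634 and 0.56 CPM on 1 kPa and 0.829 and 0.872 CPM on 20 kPa, close to the floor. Mx1 was called higher on 20 kPa only (log2 1.83 (SE 0.6), adjusted p = 0.014), and this was lost with DESeq2 and without glass replicate 1 or either 20 kPa replicate (adjusted p 0.0694 to 0.258), while the 1 kPa comparison passed without glass replicate 2, over alternatives that gave 0.0322 to 0.587. Ifi35, an interferon-induced leucine zipper protein, was higher on 1 kPa by 0.40 (SE 0.1) (adjusted p = 0.00219, 0.00167 to 0.0616 over the alternatives, the highest without 1 kPa replicate 2), and its gel difference of -0.29 (SE 0.1) was lost in 7 of 11 alternatives, among them each that left out a gel library.

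In the ISG15 system, Isg15, a ubiquitin-like modifier that is joined to other proteins, was at 10.8 and 9.11 CPM on glass, 20.7 and 22.4 CPM on 1 kPa and 14.8 and 17.5 CPM on 20 kPa. Each gel library exceeded both glass libraries, by 1.10 (SE 0.12) on 1 kPa (adjusted p = 6.61e-09) and 0.69 (SE 0.12) on 20 kPa (adjusted p = 3.20e-05). The gel difference of -0.41 (SE 0.11) (adjusted p = 0.00801) was lost without 1 kPa replicate 2 or 20 kPa replicate 1 (adjusted p 0.12 to 0.189). Usp18, which removes ISG15 and dampens the type I receptor, was at 6.61 and 6.67 CPM on glass, 13.7 and 13.6 CPM on 1 kPa and 12.1 and 12.8 CPM on 20 kPa. It rose by 1.04 (SE 0.13) and 0.91 (SE 0.13), and the gels differed by -0.13 (SE 0.12) (adjusted p = 0.506). Herc6, the main ligase for ISG15 in mice, was at 7.44 and 8.59 CPM on glass, 7.21 and 7.79 CPM on 1 kPa and 7.51 and 8.48 CPM on 20 kPa, with overlapping groups and log2 fold changes of -0.09 (SE 0.15) and 0.00 (SE 0.15) against glass.

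The genes of the PARP9, DTX3L and PARP14 group modify proteins by ADP-ribose or ubiquitin and support the interferon response. All 3 were higher on both gels than on glass, against 23% of all tested genes on 1 kPa and 22.3% on 20 kPa. Parp14 was at 19.1 and 18.6 CPM on glass, 40.1 and 37.7 CPM on 1 kPa and 27.5 and 26.4 CPM on 20 kPa. Its groups were separate, with log2 fold changes of 1.05 (SE 0.088) and 0.52 (SE 0.091) against glass and -0.53 (SE 0.084) between the gels (adjusted p = 1.77e-05). Parp9 and Dtx3l, which form a complex and share a promoter region, changed less, by 0.43 (SE 0.092) and 0.40 (SE 0.096) on 1 kPa. On 20 kPa, Parp9 was higher by 0.29 (SE 0.093) (adjusted p = 0.0137, lost with DESeq2 and without glass replicate 1 or 20 kPa replicate 2 at 0.0713 to 0.188). Dtx3l was higher on 20 kPa by 0.32 (SE 0.096) (adjusted p = 0.00808, lost with DESeq2 and without 20 kPa replicate 1 at 0.0505 to 0.0541).

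Of the 7 interferon-inducible GTPases, which act on membranes around intracellular pathogens, 6 were higher on each gel than on glass. Between the gels 2 of the 7 were lower on 20 kPa. The shares over all tested genes were 23% higher on 1 kPa, 22.3% higher on 20 kPa and 9.92% lower between the gels. Iigp1 was at 6.94 and 6.79 CPM on glass, 32.8 and 30.2 CPM on 1 kPa and 29.7 and 27.9 CPM on 20 kPa. Both gels stood far above glass and close to each other, at 4.58-fold on 1 kPa (log2 2.20 (SE 0.11), adjusted p = 1.45e-16) and 4.19-fold on 20 kPa (log2 2.07 (SE 0.11), adjusted p = 8.64e-16), with -0.13 (SE 0.089) between them (adjusted p = 0.352). Among the guanylate-binding proteins, Gbp3 was at 5.64 and 8.47 CPM on glass, 23.4 and 21 CPM on 1 kPa and 17.4 and 16.4 CPM on 20 kPa. It rose by 1.68 (SE 0.14) and 1.28 (SE 0.14), and its gel difference of -0.40 (SE 0.12) was lost with DESeq2 and without 1 kPa replicate 1 or either 20 kPa replicate (adjusted p 0.0766 to 0.198). Gbp2 rose by 0.80 (SE 0.097) and 0.38 (SE 0.099), with a gel difference of -0.42 (SE 0.093) (adjusted p = 0.00123) that was lost without 1 kPa replicate 1, over alternatives that gave 2.66e-04 to 0.122. Gbp7 rose by 0.76 (SE 0.14) and 0.59 (SE 0.14) and Igtp by 1.00 (SE 0.15) and 0.77 (SE 0.15). Ifi47 passed on 1 kPa only (log2 0.62 (SE 0.24), adjusted p = 0.0369), which was lost with DESeq2 and without glass replicate 2 or either 1 kPa replicate (0.0675 to 0.205). Irgm1, a regulator of the other immunity-related GTPases, was at 25.9 and 25.7 CPM on glass, 27.7 and 30.6 CPM on 1 kPa and 31.1 and 29 CPM on 20 kPa, and its call on 20 kPa (log2 0.22 (SE 0.088), adjusted p = 0.0455) was lost in 9 of 11 alternatives, each with a library left out among them.

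All 8 genes of MHC class I antigen presentation were higher on both gels than on glass, with median log2 fold changes of 1.37 on 1 kPa and 1.30 on 20 kPa. None of these 16 calls was lost in any of the 11 alternatives. Among all tested genes, 23% were higher on 1 kPa than on glass and 22.3% on 20 kPa. B2m (ENSMUSG00000060802.9, chr2:122147686-122153083, plus strand), the light chain shared by all class I molecules, was at 315 and 336 CPM on glass, 794 and 767 CPM on 1 kPa and 822 and 839.8 CPM on 20 kPa. The gel libraries were all more than 2-fold above glass, at 1.26 (SE 0.058) on 1 kPa (adjusted p = 2.42e-17) and 1.35 (SE 0.058) on 20 kPa (adjusted p = 5.94e-18) on the log2 scale, and the gels differed by 0.09 (SE 0.057) (adjusted p = 0.298).

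The heavy chains H2-K1 (ENSMUSG00000061232.17, chr17:33996017-34000347, minus strand) and H2-D1 (ENSMUSG00000073411.13, chr17:35262730-35267499, plus strand) are the classical class I genes. H2-K1 was at 146 and 139 CPM on glass, 408 and 405 CPM on 1 kPa and 339 and 339 CPM on 20 kPa. The groups were separate, and it was 2.85-fold higher on 1 kPa than on glass (log2 1.51 (SE 0.057), adjusted p = 1.80e-19) and 2.38-fold higher on 20 kPa (log2 1.25 (SE 0.057), adjusted p = 2.03e-17), with a gel difference of -0.26 (SE 0.055) (adjusted p = 7.38e-04). H2-D1 was at 189 and 187 CPM on glass, 558 and 518 CPM on 1 kPa and 511 and 513 CPM on 20 kPa. It rose by 1.52 (SE 0.058) and 1.45 (SE 0.058), and the gels differed by only -0.07 (SE 0.056) (adjusted p = 0.41). H2-K1 shares 9.6% and H2-D1 12.8% of its 50-base stretches with other genes, mostly of the same family.

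Nlrc5, the transactivator of class I genes, was at 18.7 and 19.5 CPM on glass, 44 and 42.6 CPM on 1 kPa and 32.7 and 29.2 CPM on 20 kPa. Its groups were separate and in the order 1 kPa, 20 kPa, glass, with log2 fold changes of 1.18 (SE 0.089) and 0.70 (SE 0.091) against glass and -0.48 (SE 0.083) between the gels (adjusted p = 6.10e-05). The peptide-supply genes also rose. Psmb8, a catalytic subunit of the immunoproteasome, was at 5.92 and 4.76 CPM on glass, 16.7 and 16 CPM on 1 kPa and 14.1 and 13.4 CPM on 20 kPa, with log2 fold changes of 1.60 (SE 0.14) and 1.35 (SE 0.14) against glass. Psmb9, another such subunit, was at 2.08 and 1.33 CPM on glass, 4.87 and 4.82 CPM on 1 kPa and 5.31 and 5.28 CPM on 20 kPa, with 1.47 (SE 0.24) and 1.60 (SE 0.23). Tap1, part of the peptide transporter, was at 32.6 and 29.4 CPM on glass, 43 and 45 CPM on 1 kPa and 39.2 and 39.4 CPM on 20 kPa. Its rise was the smallest of the 8, at 0.50 (SE 0.082) and 0.34 (SE 0.082) (adjusted p = 7.44e-06 and 0.00115). Tapbp, or tapasin, which loads the peptide, rose by 0.80 (SE 0.061) and 0.72 (SE 0.061), and 29% of its exons overlap other annotated genes.

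**Figure D4:**
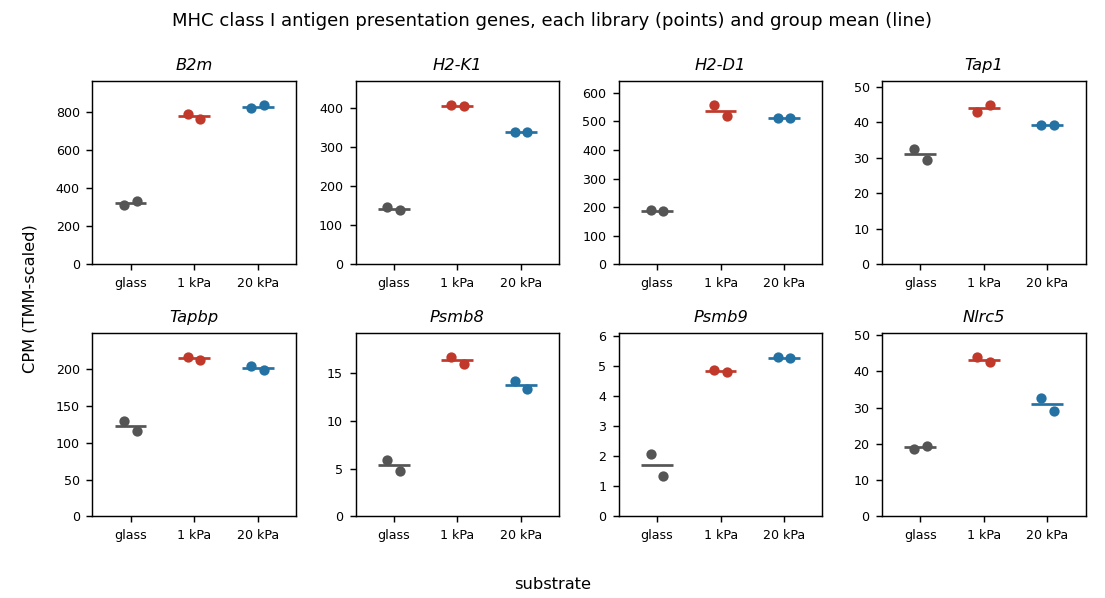
Level in CPM (vertical axis, from 0, a separate scale per gene) of the 8 genes of MHC class I antigen presentation on glass, 1 kPa and 20 kPa. Points are the 2 libraries and lines their mean. In every panel both glass libraries are the lowest, and H2-K1 and Nlrc5 are lower on 20 kPa than on 1 kPa.

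Other genes of the class I pathway included both higher and lower calls. Of 15 tested, 9 were higher on each gel than on glass, and 2 were lower on 1 kPa and 3 on 20 kPa. The shares over all tested genes were 23% and 22.3% higher, and 22% and 19.6% lower, on 1 kPa and 20 kPa. The nonclassical heavy chain H2-Q4 was at 15 and 16.4 CPM on glass, 76.2 and 69.7 CPM on 1 kPa and 52.1 and 54.4 CPM on 20 kPa. It rose by 2.22 (SE 0.085) and 1.77 (SE 0.086), and it was lower on 20 kPa than on 1 kPa by -0.46 (SE 0.073) (adjusted p = 2.43e-05). H2-T23, which encodes Qa-1, a ligand of inhibitory receptors on NK cells, was at 26.1 and 24.9 CPM on glass, 77 and 71.3 CPM on 1 kPa and 56.8 and 53.9 CPM on 20 kPa, with 1.54 (SE 0.077) and 1.12 (SE 0.078) against glass. H2-Q7 was at 0.925 and 0.87 CPM on glass, 13.7 and 13.9 CPM on 1 kPa and 9.21 and 8.19 CPM on 20 kPa, with log2 fold changes of 3.93 (SE 0.2) and 3.26 (SE 0.22). H2-Q6 had 1 count on glass against 160 on 1 kPa and 118 on 20 kPa, a ratio of 162 (95% counting interval 28.7 to 6442) and of 111 (19.6 to 4438). These copies share 13.6% (H2-T23) to 32% (H2-Q6) of their 50-base stretches with other genes, so the split of reads among them is uncertain. Tap2, the partner of Tap1 in the transporter, rose by 0.52 (SE 0.087) and 0.49 (SE 0.086), and the immunoproteasome subunit Psmb10 by 0.85 (SE 0.099) and 0.65 (SE 0.1). The heavy chain gene H2-T24, at 3.02 to 3.61 CPM, and Psme1 and Psme2, which encode an activator of the proteasome, at 45.8 to 57.1 CPM, passed no test.

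Of 3 chaperones of the general secretory pathway on that list, 2 were lower on both gels than on glass. Canx, which encodes calnexin and helps fold new glycoproteins, was at 692 and 697 CPM on glass, 501 and 498 CPM on 1 kPa and 499 and 499 CPM on 20 kPa, with log2 fold changes of -0.47 (SE 0.055) and -0.48 (SE 0.055). Pdia3, a disulphide isomerase of the peptide-loading complex, had -0.30 (SE 0.056) and -0.31 (SE 0.056). Calr, which encodes calreticulin, was lower on 20 kPa (log2 -0.25 (SE 0.062), adjusted p = 0.00154), and its value of -0.12 (SE 0.062) on 1 kPa did not pass (adjusted p = 0.121, 0.000679 to 0.739 over the 11 alternatives, passing with no filter and without glass replicate 2). The 6 genes of the constitutive proteasome core included 0 called higher on either gel, also at an unadjusted p under 0.05 and with DESeq2. On each gel 3 were called lower, but on 20 kPa this was 1 with DESeq2 and without glass replicate 2 or either 20 kPa replicate. Over all tested genes, 22% were lower on 1 kPa and 19.6% on 20 kPa. Psmb7, whose place Psmb10 takes in the immunoproteasome, was at 79.7 and 90.6 CPM on glass, 63 and 54 CPM on 1 kPa and 63.9 and 67.3 CPM on 20 kPa, with log2 fold changes of -0.54 (SE 0.076) and -0.37 (SE 0.075). Psmb5 and Psmb6, the counterparts of Psmb8 and Psmb9, passed no test, at -0.05 (SE 0.066) and -0.14 (SE 0.07) on 1 kPa. Psmb5 shares 54.1% of its 50-base stretches with other genes, so its counts are uncertain. Among 6 tested MHC class II genes, 1 was called higher on 1 kPa (H2-Ab1) and 2 on 20 kPa (Cd74 and H2-DMb1). These counts lie near the shares of 23% and 22.3% over all tested genes. The call of H2-Ab1 was lost with DESeq2 and without glass replicate 1 or 1 kPa replicate 2 (adjusted p 0.0961 to 0.514), and that of Cd74 in 8 of 11 alternatives. The 7 class II genes together reached 8.35 to 14.0 CPM in a library.

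Most markers of another cell type were, like the class I genes, higher on the gels than on glass. The counts of called markers below stand beside the shares over all tested genes. These were 23% higher and 22% lower on 1 kPa, and 22.3% and 19.6% on 20 kPa. The 6 endothelial markers summed to 14.0 and 14.2 CPM on glass, 28.4 and 26.5 CPM on 1 kPa and 25.2 and 25.1 CPM on 20 kPa, and 4 of 6 were higher on 1 kPa and 5 of 6 on 20 kPa, none of them at 0 in any library. Tek had the opposite sign, at -0.24 (SE 0.28) on 1 kPa and -0.72 (SE 0.3) on 20 kPa (adjusted p = 0.527 and 0.0511), and on 20 kPa it was called lower in 6 of the 11 alternatives. The call of Cldn5 on 1 kPa was lost with DESeq2 and without glass replicate 1 or either 1 kPa replicate (adjusted p 0.0618 to 0.19). On 20 kPa the call of Emcn was lost with DESeq2 and without glass replicate 1 or 20 kPa replicate 1 (0.0605 to 0.128), and that of Cdh5 without 20 kPa replicate 2 (0.0696). Pecam1, an adhesion molecule of endothelial cells, was at 1.99 and 2.84 CPM on glass, 8.09 and 7.96 CPM on 1 kPa and 6.97 and 6.44 CPM on 20 kPa. Between the gels 1 of the 6 endothelial markers was higher on 20 kPa and 0 were lower, and with DESeq2 0 were higher. Of the 8 class I genes on the main list, 0 were higher and 2 lower. The shares over all tested genes were 8.94% higher and 9.92% lower. The 6 keratinocyte markers summed to 7.72 and 10.1 CPM on glass and to 3.76 to 4.80 CPM on the gels, and of 3 tested, Krt5 and Krt14 were lower on both gels. Of 6 tested macrophage and leukocyte markers, 2 were higher on 1 kPa (Lyz2 and Laptm5), and on 20 kPa 1 was higher (Lyz2) and 1 lower (Csf1r). The calls of Laptm5 (without glass replicate 2 or 1 kPa replicate 1), of Lyz2 on 20 kPa (without glass replicate 1) and of Csf1r (without glass replicate 2 or 20 kPa replicate 2) each rested on single libraries, at 0.0659 to 0.139, and Laptm5 was also lost with DESeq2 (0.333). The part of these cells in the class I and effector results was not tested.

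Levels between genes can be compared only per length. Per kilobase of annotated exon, B2m was the highest of the 45 genes in every group, at a mean of 378 CPM per kb on glass, 908 on 1 kPa and 966 on 20 kPa. H2-D1 followed with 72.8, 209 and 198 CPM per kb, then H2-K1 with 48.5, 138 and 116. Bst2 was the highest effector, at 46.2 on glass, 94.9 on 1 kPa and 66.0 on 20 kPa, and Isg15 stood at 13.2, 28.4 and 21.4. Mx1, Rsad2, Oas2 and Cmpk2 were the lowest on glass, at 0.0659 to 0.267 CPM per kb. Oas2, which had the largest log2 fold change on 1 kPa of the 45 genes, was thus among the scarcest on glass, and B2m the most abundant.

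**Figure D5:**
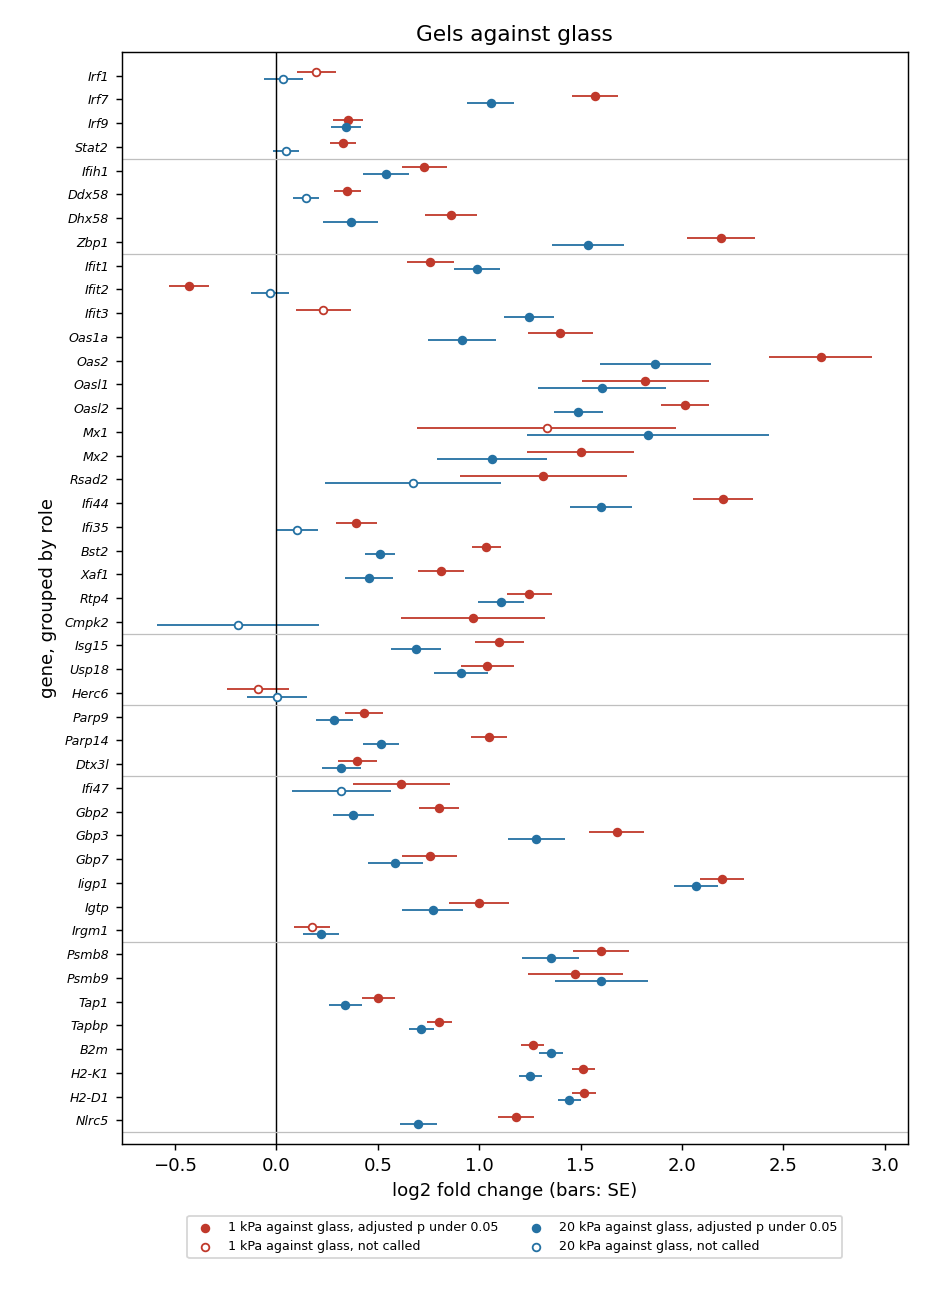
Log2 fold change of each of the 45 tested genes on 1 kPa (red) and 20 kPa (blue) against glass, with bars for the SE. Filled points have an adjusted p under 0.05 and open points do not. Nearly all points lie right of 0, the exceptions being Ifit2 on both gels, Herc6 on 1 kPa and Cmpk2 on 20 kPa, and for most genes the red point lies right of the blue.

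Beyond the 46 genes, a list of 43 other interferon-stimulated genes, of which 41 were tested, had 34 higher and 2 lower on 1 kPa than on glass, and 28 higher and 1 lower on 20 kPa. Their median log2 fold changes were 1.13 and 0.72. The shares over all tested genes were 23% higher and 22% lower on 1 kPa, 22.3% and 19.6% on 20 kPa, and 9.92% lower between the gels. The 2 lower on 1 kPa were Pml and Tgtp1, and leaving out 1 kPa replicate 1 lost both calls (adjusted p 0.0819 and 0.158). The Tgtp1 call was also lost with DESeq2 and when any other library but glass replicate 1 was left out. Between the gels, 20 were lower and 1 higher on 20 kPa, and the count of lower genes was 12 without 1 kPa replicate 1 or without 20 kPa replicate 2. Ifitm1, which blocks virus entry at membranes, was at 3.47 and 2.9 CPM on glass, 23.1 and 22.6 CPM on 1 kPa and 6.53 and 6.54 CPM on 20 kPa. The 1 kPa libraries were far above the rest, by 2.83 (SE 0.14) against glass, with 1.02 (SE 0.17) for 20 kPa against glass and -1.81 (SE 0.13) between the gels (adjusted p = 2.11e-12). Gbp6 was at 1.48 and 0.58 CPM on glass, 20.7 and 19.6 CPM on 1 kPa and 7.7 and 8.48 CPM on 20 kPa, in the same order, although 70.7% of its 50-base stretches are shared with other genes. Tgtp1 shares 81.2% of its stretches with Tgtp2 or another gene, so the split of their reads is uncertain. In the main fit Tgtp2, which shares 86.6% of its stretches, was among the genes called higher on both gels than on glass. With DESeq2, which called neither gene on 1 kPa, Tgtp1 had a log2 fold change of -1.325 against glass and Tgtp2 1.91. The Tgtp2 call on 1 kPa was also lost with no filter and when any library was left out. Its call on 20 kPa was lost with DESeq2 and without glass replicate 1 or 20 kPa replicate 1. Lgals3bp, a secreted glycoprotein, was at 183 and 166 CPM on glass, 478 and 471 CPM on 1 kPa and 374 and 359.6 CPM on 20 kPa, higher on both gels by 1.44 (SE 0.06) and 1.07 (SE 0.059) and lower on 20 kPa than on 1 kPa by -0.37 (SE 0.058) (adjusted p = 1.43e-05). Ifi204, a DNA-binding protein of the p200 family, was at 12.6 and 15.5 CPM on glass, 66.2 and 55.8 CPM on 1 kPa and 46.9 and 44.6 CPM on 20 kPa, raised by 2.13 (SE 0.1) and 1.71 (SE 0.1).

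Genes upstream of interferon production and those that restrain the response were also counted. Over all tested genes, 23% were higher and 22% lower on 1 kPa than on glass, and 22.3% and 19.6% on 20 kPa. Between the gels 9.92% of all tested genes were lower on 20 kPa. Of 12 genes of the induction pathway, 7 were higher on 1 kPa, 6 on 20 kPa, and 2 were lower on 20 kPa than on 1 kPa. The count on 20 kPa was 3 with DESeq2 and without 20 kPa replicate 1, and the gel count was 1 without either 1 kPa replicate or 20 kPa replicate 2. Ikbke, a kinase that activates IRF3 and IRF7, was at 41 and 38.1 CPM on glass, 97.7 and 105 CPM on 1 kPa and 53 and 59.3 CPM on 20 kPa. Its 3 groups did not overlap, at 1.35 (SE 0.074) and 0.51 (SE 0.076) against glass and -0.85 (SE 0.071) between the gels (adjusted p = 1.41e-10). Of 9 tested negative regulators, 5 were higher and 3 lower on 1 kPa, and 4 higher and 1 lower on 20 kPa. The 3 lower on 1 kPa were 1 without glass replicate 1 or 1 kPa replicate 1, and the 1 on 20 kPa (Samhd1) was lost when glass replicate 1 or 20 kPa replicate 2 was left out. Log2 fold changes of the 9 regulators on 1 kPa against glass ran from -1.615 to 0.917. Between the gels 3 of the 9 were lower and 0 higher on 20 kPa, against 9.92% and 8.94% of all tested genes. With no filter or the stricter filter 1 was higher. Socs3, a feedback inhibitor of JAK signalling, was at 152 and 144 CPM on glass, 247 and 253 CPM on 1 kPa and 203 and 204 CPM on 20 kPa, and rose by 0.76 (SE 0.057) and 0.46 (SE 0.057). Socs1, which inhibits JAK kinases in the same way, rose by 0.49 (SE 0.091) and 0.41 (SE 0.091). Ptpn2, a phosphatase that acts on JAK and STAT proteins, was at 29.1 and 32.3 CPM on glass, 60.2 and 55.2 CPM on 1 kPa and 45.7 and 45.2 CPM on 20 kPa, and rose by 0.92 (SE 0.08) and 0.57 (SE 0.081).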

How the data were processed

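RNA-seq of mouse ear fibroblasts on glass, 1 kPa and 20 kPa gels gave 6 libraries, grouped by the substrate in their titles. The deposited values are raw counts of reads per gene. Per the submitters' processing notes, the tools were Trim Galore and cutadapt, STAR 2.7.10b and featureCounts, with the mm10 build. For the annotation, strand setting and mouse strain: not given in the sources used here. Reads from overlapping, antisense or near-identical genes, and from the class I genes, which vary between strains, are therefore uncertain. Of 57010 identifiers, 91.3% matched GENCODE M21 (GRCm38), the source of symbols, positions and exon lengths. In 99.9% of the matches the table's identifier had a later version. Sharing was measured as 50-base stretches that occur in other genes.

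Library totals were 17669006 to 21350111 counts. Intervals and floors cover counting error only. In R 4.3.3, edgeR 4.0.16 kept 16093 genes (filterByExpr by group), scaled libraries with TMM and fitted all 6 libraries by group (glmQLFit, glmQLFTest) with 3 residual degrees of freedom. A gene is called at an adjusted p under 0.05 (Benjamini-Hochberg over all tested genes). SE is the size of the log2 fold change over the root of the test statistic F, so it follows the test. An exact two-sided test of 2 against 2 libraries cannot go below p = 0.333, so none was used. Alternatives were total counts, DESeq2 1.42.0, no filter (other than a total count above 0), a stricter filter, a replicate block and leaving out each library. The 46 genes and the other lists were chosen with earlier results of these data known. All 46 may be named, as may ligands, receptors, kinases, other class I, proteasome and class II genes, and of each other list up to 6 members with the smallest unadjusted p. A gene first placed on the list of receptors and kinases is not reported here. Ifit3b, Pml, Tgtp1, Tgtp2, Samhd1 and the markers named were chosen after their values were seen.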

Additional observations from a re-analysis of the deposited data

How the results depend on the processing

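The 1481 log2 fold changes of single listed genes under the 11 alternatives kept their direction without exception among called values. Of these, 1408 stayed on the same side of the threshold, 68 lost a call and 5 gained it, spread over 24 results, which are named in the report beside their genes. Leaving out each library in turn gave 35 to 39 genes higher and 1 lower on 1 kPa against glass, 32 to 35 higher and 0 lower on 20 kPa against glass, and 1 to 3 higher and 11 to 19 lower on 20 kPa against 1 kPa. With an arm of 1 library, that library is assumed to vary like the others. Fewer libraries are the construction of these alternatives. With DESeq2 the counts higher were 37 and 31 against glass, and the count lower on 20 kPa against 1 kPa was 13. The labels do not say whether a replicate number marks a shared animal or day. Deviations of same-numbered libraries correlated over genes at -0.0347 (glass and 1 kPa), -0.0158 (glass and 20 kPa) and -0.0338 (1 kPa and 20 kPa). These values show no shared effect of the number, but they cannot establish that the libraries are unpaired. With the replicate block, 39 genes were higher and 1 lower on 1 kPa, 35 were higher on 20 kPa, and 2 were higher and 19 lower on 20 kPa against 1 kPa. The share of higher against lower calls among all genes under total counts was 3509 against 3599 on 1 kPa, 3827 against 2655 on 20 kPa and 1945 against 1253 between the gels. Depth limits the interferon genes, Oas3 and Mx1, some of whose libraries lay at or below the floor, and the precision of Rsad2 and Cmpk2, with 11 to 45 counts in a library.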
